A study of Mus musculus with 7 samples.

Results

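The cytotoxic effector genes described here are Gzma, Gzmb, Gzmc, Gzmk, Prf1, Nkg7, Fasl, Ifng, Tbx21 and Eomes. They were taken by symbol, not by their values, and all 10 were found among the 31253 genes of the count matrices. Their UMI counts (unique molecular identifiers, each standing for 1 captured transcript) were read in single-cell suspensions of peripheral lung from 4 Smad4iko mice and 3 Smad4fl/fl mice. Smad4iko mice carried floxed Smad4 alleles (Smad4fl/fl) and the Rosa26-creERT2 allele, a tamoxifen-dependent Cre recombinase at a locus active in most cell types, so the allele is not restricted to lymphocytes. The Smad4fl/fl mice were Cre-negative floxed littermates. Both groups received tamoxifen at 75 mg/kg in 5 intraperitoneal injections between postnatal days 21 and 26, and lungs were taken at 8 weeks. Each mouse gave 1 library.

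Natural killer (NK) cells and cytotoxic T cells kill by releasing granules toward a target cell. Perforin (Prf1) opens the way for granzymes, serine proteases encoded here by Gzma, Gzmb, Gzmc and Gzmk, and NKG7 is a membrane protein of these granules. Fas ligand (Fasl) is a separate death signal, and interferon gamma (Ifng) is the cytokine these cells secrete. T-bet (Tbx21) and Eomesodermin (Eomes) are T-box transcription factors that drive this programme in NK and CD8 T cells. SMAD4 is the shared partner of the receptor-activated SMAD proteins downstream of the TGF-beta family. The comparison asks how the levels of these genes differ in each lymphocyte class between the genotypes.

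In the GENCODE annotation of the mouse build mm10 the members are protein-coding genes on 7 chromosomes. Gzma (chr13:113093825-113100981) and Gzmk (chr13:113171608-113225908) lie on the minus strand of chromosome 13, and Gzmc (chr14:56231441-56234656) and Gzmb (chr14:56258838-56262260) on that of chromosome 14. Prf1 (chr10:61297833-61304680) and Ifng (chr10:118441046-118445892) lie on chromosome 10. The others are Nkg7 (chr7:43437073-43438249), Fasl (chr1:161780689-161788495), Tbx21 (chr11:97098071-97115331) and Eomes (chr9:118478212-118486132). All 10 were found in the RefSeq promoter table of build GRCm38.p6, and the 250 bases before each gene's start were searched for the T-box core AGGTGT on both strands, because Tbx21 and Eomes encode T-box factors. It was present in 4 of the 10 members (Gzma, Gzmk, Nkg7 and Prf1) and in 11.9% of 32536 distinct promoters of the same length. The SMAD box CAGAC was present in 1 member, Gzmk, and in 42.2% of all promoters. A match is a description of letters and not a binding site. The windows end at the RefSeq start, which for Nkg7, Gzmk and Prf1 lies inside the GENCODE gene. The matches of Nkg7 (chr7:43437124-43437129) and Gzmk lie within that gene rather than before it, while the match of Prf1 lies before its gene. Promoters of 3 NK-high members with a match and of Ifng, without one, are shown 5′ to 3′ with the matched bases in capitals. They are Gzma (chr13:113100982-113101231, minus strand), Prf1 (chr10:61297586-61297835, plus strand), Nkg7 (chr7:43436888-43437137, plus strand) and Ifng (chr10:118440796-118441045, plus strand).
Gzma: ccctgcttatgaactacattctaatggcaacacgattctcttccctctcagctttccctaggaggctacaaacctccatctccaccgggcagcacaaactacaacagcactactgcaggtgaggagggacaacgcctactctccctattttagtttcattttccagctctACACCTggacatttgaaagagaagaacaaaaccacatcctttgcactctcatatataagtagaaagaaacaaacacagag
Prf1: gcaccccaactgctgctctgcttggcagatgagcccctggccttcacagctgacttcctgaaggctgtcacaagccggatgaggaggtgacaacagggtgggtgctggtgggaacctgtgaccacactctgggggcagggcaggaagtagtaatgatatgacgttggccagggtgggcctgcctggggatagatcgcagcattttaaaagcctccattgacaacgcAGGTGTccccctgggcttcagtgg
Nkg7: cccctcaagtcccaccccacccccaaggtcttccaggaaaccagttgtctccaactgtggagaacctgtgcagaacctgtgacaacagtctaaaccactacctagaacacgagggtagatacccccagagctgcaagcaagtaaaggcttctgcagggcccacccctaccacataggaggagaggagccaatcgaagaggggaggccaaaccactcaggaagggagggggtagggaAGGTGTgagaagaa
Ifng: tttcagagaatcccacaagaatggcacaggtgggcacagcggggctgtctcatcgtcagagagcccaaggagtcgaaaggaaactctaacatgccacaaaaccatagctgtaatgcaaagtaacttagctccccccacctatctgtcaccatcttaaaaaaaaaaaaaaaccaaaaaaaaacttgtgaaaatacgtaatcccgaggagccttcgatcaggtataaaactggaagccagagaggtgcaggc

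After filtering, 49711 cells remained, between 6384 and 8140 per library, with library medians of 4464 to 6328 UMIs per cell. Between 9 and 23 cell barcodes were shared by any 2 libraries. Cells were grouped with the members left out of the clustering, so that the members did not define the classes. Also left out were the fixed lists of granule, death ligand and cytokine, transcription factor, and interferon gamma and interleukin circuit genes. This gave 4742 NK cells (228 to 1352 per library), 3658 CD8 T cells (303 to 662), 7307 CD4 T cells (739 to 1291) and 703 gamma-delta T cells (13 to 229). NK cells carried Ncr1 at 182 to 581 CPM (a gene's share of all UMIs of the class), against a mean of 8.9 CPM for Cd3e. Clusters were named NK only with Ncr1 of at least 200 CPM and Cd3e under 100 CPM, so these levels follow from the naming. Libraries Smad4iko 3 and 4 stood apart: summed dissociation-response genes in NK cells reached 4597 and 4904 CPM there, against 1276 and 1357 CPM in Smad4iko 1 and 2 and 2022 to 2700 CPM in the Smad4fl/fl libraries. Neutrophil transcripts in NK cells summed to 159 to 824 CPM in Smad4iko and 13.2 to 90.3 CPM in Smad4fl/fl libraries. Smad4 itself was at 93.5, 97.2, 48.0 and 75.7 CPM in Smad4iko NK cells and at 105, 102 and 107 CPM in Smad4fl/fl NK cells. The sources used here do not say which exon is floxed, and 3′ tags need not come from it, so these counts do not measure the deletion. Klra8, Klra9 and Klra4, Ly49 receptor genes of the NK marker list whose content differs between mouse strains, also separated the genotypes. Klra9 was at 599, 684, 626 and 654 CPM in Smad4iko and 354, 0.284 and 305 CPM in Smad4fl/fl NK cells. These genes and the Rosa26 locus both lie on chromosome 6, so a linked difference in strain background and the Cre allele cannot be told apart. None of the members is on chromosome 6.

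NK cells had the highest mean level of 8 of the 10 members, and the exceptions were Gzmb and Gzmc. The following are means over the 7 libraries with their SD, given for cell classes as a description. Gzma averaged 13400 ± 1428 CPM in NK cells, and the next class, basophils, averaged 116 ± 249.8 CPM, mostly from Smad4iko 4. NK cells held 91.4% of all Gzma UMIs, 89.8% of Prf1, 83.7% of Gzmb, 83.6% of Eomes and 79.3% of Nkg7. Nkg7 averaged 3327 ± 370 CPM in NK cells and 292 ± 90.6 CPM in CD8 T cells, the next class. For Prf1 the next class was also CD8 T cells, at 28.2 ± 11.5 CPM, against 1413 ± 404 CPM in NK cells. Eomes (272 ± 55.9 CPM) and Tbx21 (152 ± 16.5 CPM) in NK cells were likewise followed by CD8 T cells, at 11.99 ± 5.10 and 3.57 ± 1.14 CPM. For Fasl (371 ± 57.5 CPM in NK cells) and Ifng (84.9 ± 53.1 CPM) the next class was CD4 T cells, at 31.4 ± 11.05 and 3.45 ± 3.40 CPM. In these 7 genes every NK library lay above every library of the next class. Gzmk was barely counted, at 2.85 ± 1.40 CPM in NK cells and 1.02 ± 0.892 CPM in CD4 T cells, and those libraries overlapped.

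**Figure D1:**
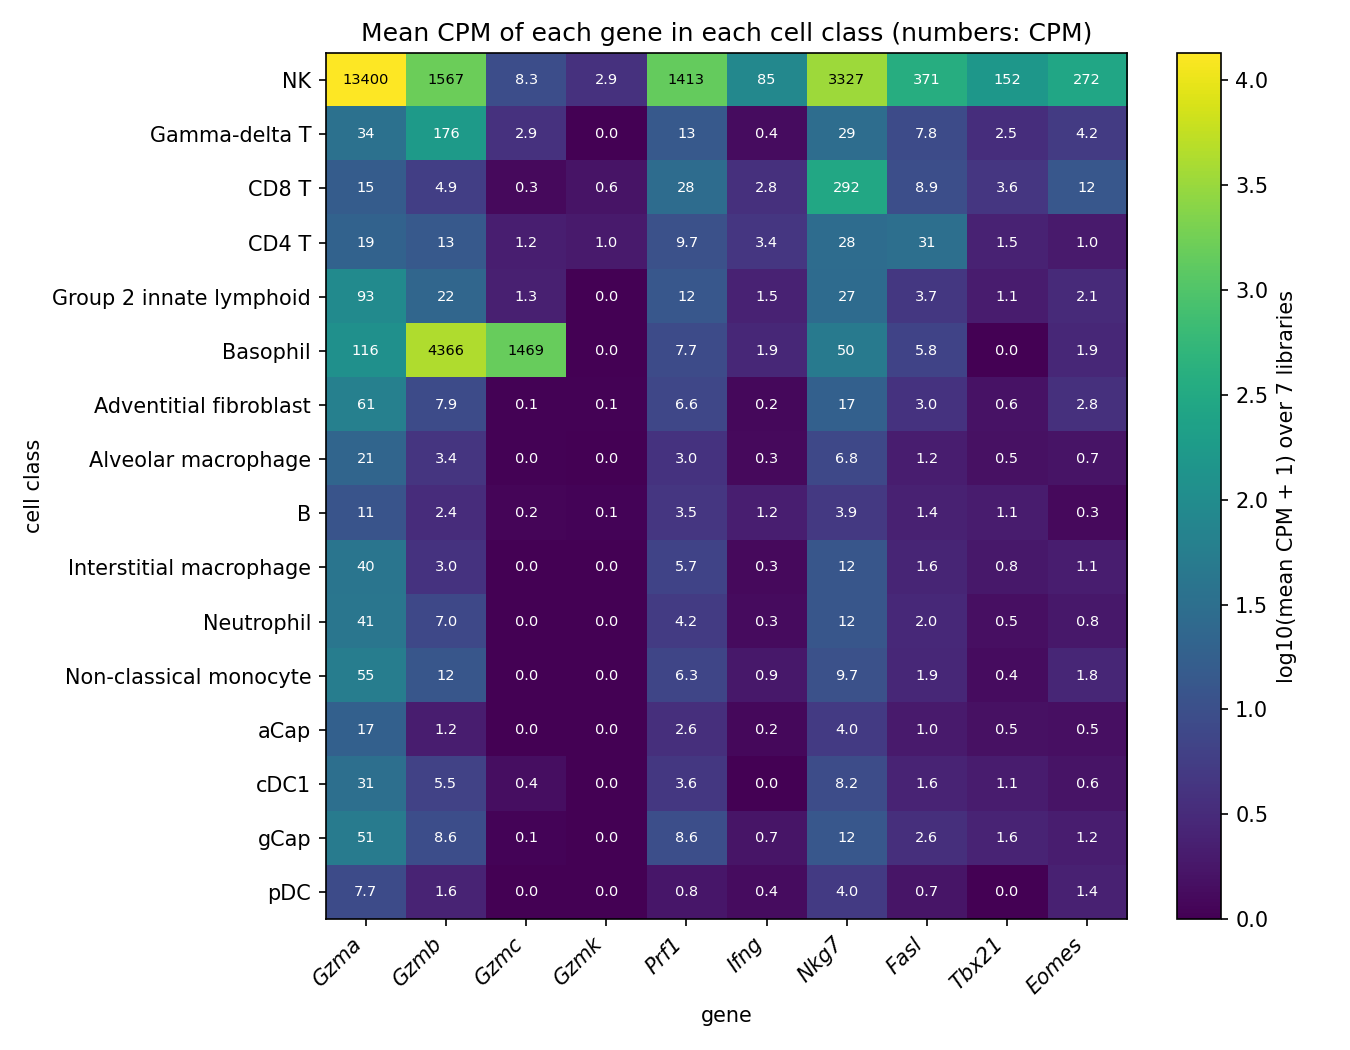
Mean CPM over 7 libraries of each of the 10 genes (columns) in 16 cell classes (rows), coloured by log10(mean CPM + 1) with the CPM printed in each cell. The NK row is highest in every column except Gzmb and Gzmc, which peak in basophils at 4366 and 1469 CPM.

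Basophils, 84 cells in all, had a higher mean of Gzmb and Gzmc than NK cells, and for Gzmb the libraries of the classes overlapped. They were recognised by Mcpt8, a basophil protease (mean 1169 CPM), and Gata2 (1292 CPM), while Mcpt4 and Kit, genes of mast cells, had 1 and 5 UMIs and the mast cell genes Cma1 and Tpsb2 had 56 and 23. Of these, 53 of Cma1, 23 of Tpsb2 and 5 of Kit came from 1 cell of Smad4fl/fl 1, the library with the lowest Mcpt8 (5 UMIs, 312 CPM). All 95 Gzmb and 53 Gzmc UMIs of that library remained without this cell. Basophil Gzmb was at 7037, 5216, 487 and 242 CPM in the Smad4iko libraries and at 5923, 3999 and 7660 CPM in the Smad4fl/fl libraries. Smad4iko 3 and 4 were low, and the other 5 libraries overlapped between genotypes. Gzmc in the same cells was at 2930, 54.9, 24.3 and 26.9 CPM in Smad4iko and 3305, 1446 and 2498 CPM in Smad4fl/fl libraries. With 7 to 19 basophils per library no test was made. Gzmc averaged 8.33 ± 5.81 CPM in NK cells, and every basophil library lay above every NK library, though Smad4iko 2, 3 and 4 held 1, 1 and 2 Gzmc UMIs in basophils.

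In NK cells the differences in the granule genes between the genotypes lay within the spread of the libraries. Gzma was at 14168, 14443, 12801 and 12550.1 CPM in Smad4iko NK cells and at 10908, 13756 and 15172.5 CPM in Smad4fl/fl NK cells. Those ranges overlapped, and the fitted difference was 0.11 ± 0.16 on the log2 scale (SE, edgeR quasi-likelihood test with Benjamini-Hochberg adjustment over 9581 genes, adjusted p = 0.875). Perforin was at 1737, 1463, 801 and 999 CPM in Smad4iko and at 1620, 1334 and 1940 CPM in Smad4fl/fl NK cells, with Smad4iko 3 and 4 lowest of the 7. The log2 difference of Prf1 was −0.30 ± 0.22 (edgeR adjusted p = 0.723). Gzmb was at 1883, 2454, 1103 and 1037 CPM in Smad4iko and at 1381, 1306 and 1808 CPM in Smad4fl/fl NK cells, where again Smad4iko 3 and 4 were lowest while Smad4iko 1 and 2 were highest. Its log2 difference was 0.19 ± 0.25 (edgeR adjusted p = 0.866). Nkg7 was at 3645, 3513, 3091 and 2959 CPM in Smad4iko and 3424, 2837 and 3821 CPM in Smad4fl/fl NK cells, with a log2 difference of 0.07 ± 0.13 (edgeR adjusted p = 0.914). The sparse granzymes Gzmc (167 UMIs in all NK cells) and Gzmk (68 UMIs) gave log2 differences of 0.32 ± 0.58 and 0.50 ± 0.49 and overlapped between the genotypes.

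Of the death ligand, the cytokine and the T-box factors, Ifng and Eomes separated the genotypes by CPM in NK cells without passing the adjusted threshold of 0.05. Fasl was at 340, 333, 367 and 344 CPM in Smad4iko and at 380, 339 and 496 CPM in Smad4fl/fl NK cells, overlapping, with a log2 difference of −0.13 ± 0.15 (edgeR adjusted p = 0.843). Ifng was at 71.2, 58.5, 126 and 188 CPM in Smad4iko NK cells and at 49.4, 43.2 and 57.6 CPM in Smad4fl/fl NK cells. All 4 Smad4iko libraries were above all 3 Smad4fl/fl libraries, Smad4iko 2 by a narrow margin. The log2 difference of Ifng was 1.27 ± 0.37 (edgeR adjusted p = 0.604, and 0.0051 before adjustment). Without the filter on low counts Ifng was called (edgeR adjusted p = 1.5e-05), the one setting of those tried that called it. That setting called 154 of 17075 genes (0.902%), against 0.0313% with the filter. In the other settings the edgeR adjusted p of Ifng reached 0.954. Eomes was at 260, 206, 216 and 238 CPM in Smad4iko NK cells and at 312, 330 and 344 CPM in Smad4fl/fl NK cells, so all Smad4iko libraries were below all Smad4fl/fl libraries. Its log2 difference was −0.42 ± 0.14 (edgeR adjusted p = 0.605, and 0.00995 before adjustment). The other T-box gene, Tbx21, was at 122, 149, 157 and 173 CPM in Smad4iko and at 155, 143 and 166 CPM in Smad4fl/fl NK cells, with a log2 difference of 0.06 ± 0.16 (edgeR adjusted p = 0.940).

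None of the 10 members was called in NK cells, where 3 of 9581 genes were called (0.0313%). Unadjusted, 2 of 10 members had p below 0.05, against 7.78% of all genes. One member lay wholly above (Ifng, against 2.71% of all genes) and 1 wholly below (Eomes, against 5.89%). The median log2 difference of the members was 0.09, against 0.01 over all genes tested. On simulated counts with the same library sizes, the test recovered 64% of 2-fold and 100% of 4-fold changes in NK cells. The simulation changed many well-counted genes at once and drew the libraries independently. These shares therefore do not give the recovery of a few changed genes, or of sparse ones such as Gzmk.

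**Figure D2:**
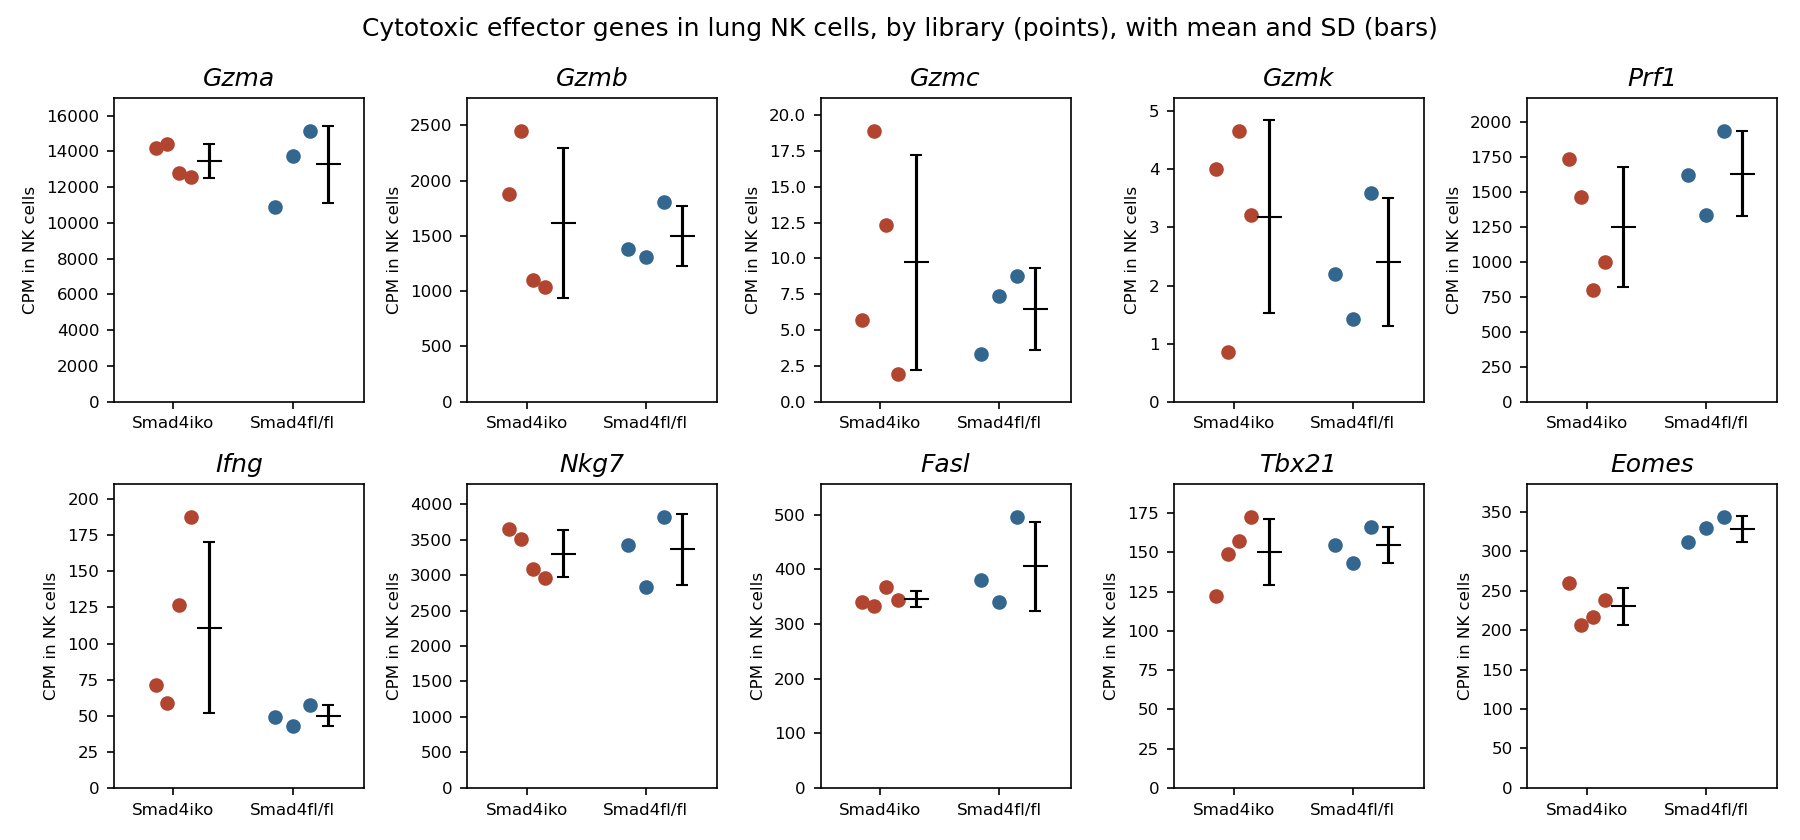
CPM of each of the 10 genes in NK cells, 1 point per library (4 Smad4iko, left, and 3 Smad4fl/fl, right), with the mean and SD beside the points; every axis starts at 0. The points overlap between the genotypes in every panel except Ifng (Smad4iko higher) and Eomes (Smad4iko lower).

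The 2 libraries with the most dissociation-response transcripts in NK cells also had the most Ifng. Smad4iko 3 and 4, with 4597 and 4904 CPM of those genes, had 126 and 188 CPM of Ifng, more than any other library. Among the other 5 libraries the order was not the same, since Smad4iko 1 and 2 had the lowest sums of these genes but more Ifng than the Smad4fl/fl libraries. With a term for these 2 libraries the log2 difference of Ifng was 0.41, and with Smad4iko 1 and 2 alone it was 0.42 (edgeR adjusted p = 0.793 and 0.788). Eomes did not follow them, at 260 and 206 CPM in Smad4iko 1 and 2 and 216 and 238 CPM in Smad4iko 3 and 4, and its log2 difference was −0.46 with the term and −0.46 with Smad4iko 1 and 2 alone. The part of dissociation in the Ifng levels was not tested. After thinning each cell to 1500 UMIs, 7.74%, 6.48%, 14.5% and 16.6% of Smad4iko NK cells and 6.59%, 5.19% and 7.05% of Smad4fl/fl NK cells held an Ifng UMI. Unlike the CPM, these shares overlapped, since Smad4iko 2 lay below Smad4fl/fl 1 and Smad4fl/fl 3. Myeloid cells, used to estimate RNA released into the suspension, held an Ifng UMI in 0.04% of cells in both genotypes at the same thinning. Their median depth was 5240 UMIs in Smad4iko and 6394 in Smad4fl/fl, against 4203 and 4121 in NK cells. An Eomes UMI was found in 27.7%, 23.3%, 25.4% and 26.9% of Smad4iko NK cells and in 33.1%, 33.6% and 35.5% of Smad4fl/fl NK cells, again lower in every Smad4iko library, against means of 0.05% and 0.17% of myeloid cells.

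**Figure D3:**
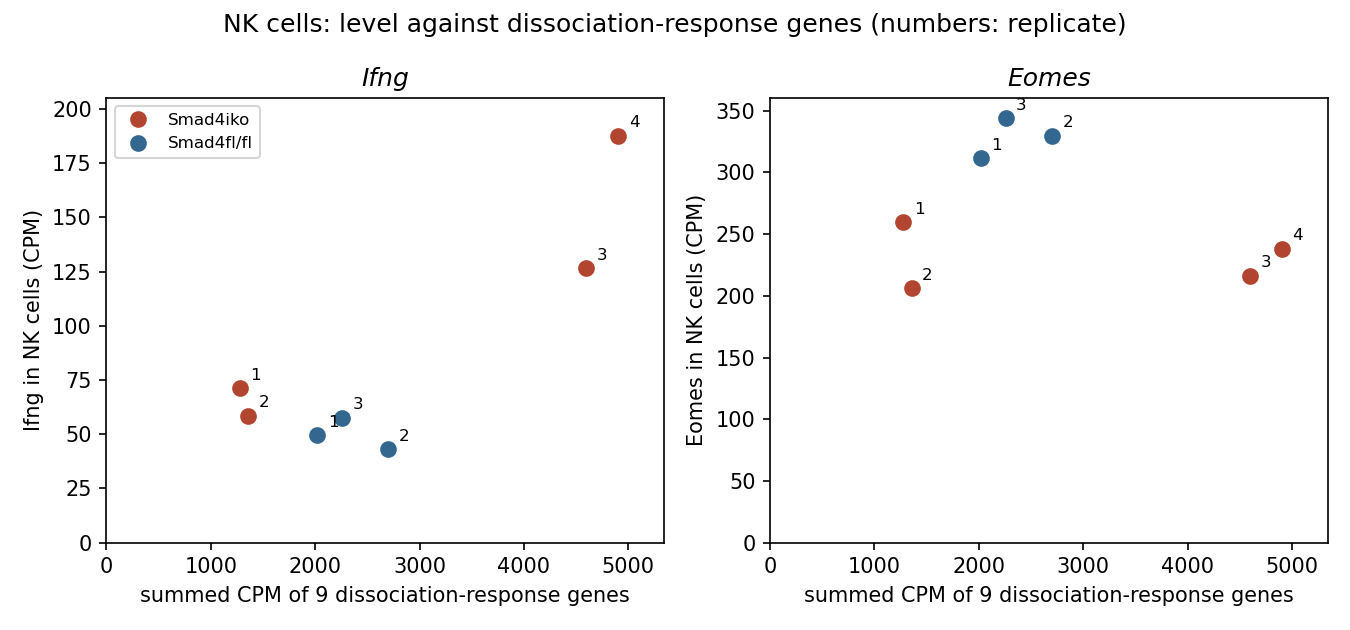
Ifng (left) and Eomes (right) in NK cells in CPM against the summed CPM of 9 dissociation-response genes in the same cells, 1 point per library, with replicate numbers beside the points. Ifng is highest in Smad4iko 3 and 4, at the right, while Eomes is at 206 to 260 CPM in all 4 Smad4iko libraries and at 312 to 344 CPM in the Smad4fl/fl libraries.

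The NK cells formed 3 clusters that differed in member levels, described here over all libraries together. The largest, 2774 cells led by Gzma and the chymase gene Cma1, had 17086 CPM of Gzma, 2043 CPM of Gzmb and 1852 CPM of Prf1. In the second, 1821 cells led by Klra4 and Car2, these were 10094, 861 and 1049 CPM. The smallest, 147 cells led by the chemokine genes Ccl4 and Xcl1 with Tnfrsf9, had the most Gzmb (3170 CPM), Ifng (243 CPM) and Gzmc (114.5 CPM). The cluster led by Gzma held 55.0% to 60.7% of NK cells in Smad4iko and 53.9% to 60.1% in Smad4fl/fl libraries, and the smallest held 2.42% to 4.69% and 2.96% to 4.82%. In the 2 large clusters taken alone, chosen after the data were seen, the log2 difference of Eomes was −0.49 and −0.38 and that of Ifng was 1.00 and 1.41. Ifng in the Ccl4-led cluster was at 247, 200, 526 and 666 CPM in Smad4iko and 72.8, 39.1 and 161 CPM in Smad4fl/fl libraries, from 11 to 42 cells each.

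Of the other genes of the cytotoxic programme and its neighbours, 1 passed the test in NK cells. Among 20 further granzyme and granule genes, 15 were tested and none was called, with a median log2 difference of 0.02. They ranged from Stx11, a syntaxin of granule release (−0.17), to Cst7, the inhibitor cystatin F (0.37). Of 11 death ligand and cytokine genes, 8 were tested and none called, from Tnf (−0.22) to the chemokine gene Ccl3 (0.68). No gene was called among 13 transcription factor genes, from Irf8 (−0.33) to Prdm1 (0.39), or among 15 tested of the interferon gamma and interleukin circuit (the cytokine, its receptors and the interleukins that induce it), from Il12rb2 (−0.50) to Il15 (0.59). Of 12 genes associated with type 1 innate lymphoid cells, a relative of NK cells, 1 rose: Itga1, the integrin subunit CD49a. It was at 32.6, 37.9, 22.1 and 28.9 CPM in Smad4iko and at 10.98, 7.10 and 11.23 CPM in Smad4fl/fl NK cells, with a log2 difference of 1.72 ± 0.22 (edgeR adjusted p = 0.0282). Its direction held in every fit, from 1.42 to 2.02, but in 6 of the 7 fits that left out 1 library (all except that without Smad4iko 3) it was not called (edgeR adjusted p up to 0.215), nor was it with equal cells per library or a sex term (edgeR adjusted p = 0.275 and 0.0819). Rora was lowest in that list (−0.53). The markers of mature NK cells, 9 tested and none called, ran from Spn (−0.14) to Cx3cr1 (0.69), and the 5 genes of immature NK cells, none called, from Cd27 (−0.997) to Ctla2a (0.01).

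CD8 T cells had Nkg7 as their one abundant member, and no member was called between genotypes. Nkg7 was at 225, 218, 412 and 404 CPM in Smad4iko and at 202, 246 and 339 CPM in Smad4fl/fl CD8 T cells, highest in Smad4iko 3 and 4. The ranges overlapped and the log2 difference was 0.43 ± 0.31 (edgeR adjusted p = 0.793). With Smad4iko 1 and 2 alone the difference of Nkg7 was −0.24, and dissociation-response genes summed to 2848 and 2607 CPM in CD8 T cells of Smad4iko 3 and 4, against 911 and 972 CPM in Smad4iko 1 and 2. Perforin was at 35.7, 33.7, 11.4 and 19.5 CPM in Smad4iko and 25.5, 25.3 and 46.4 CPM in Smad4fl/fl CD8 T cells (log2 difference −0.30 ± 0.32). Eomes was at 8.30, 9.31, 18.3 and 16.5 CPM in Smad4iko and 3.85, 14.9 and 12.8 CPM in Smad4fl/fl CD8 T cells (log2 difference 0.40 ± 0.45). The log2 differences of Tbx21, Fasl, Gzma and Gzmb were 0.20 ± 0.41, −0.05 ± 0.31, 0.38 ± 0.52 and −0.27 ± 0.37, and all overlapped. Gzmc, Gzmk and Ifng, with 7, 15 and 77 UMIs, were too sparse to test.

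In CD8 T cells 7 of the 10 members were tested and 0 were called, as were 0 of 9324 genes (0.0%), with 578 genes (6.2%) at unadjusted p below 0.05 and 3 genes called by DESeq2. No member was at unadjusted p below 0.05, and none lay wholly above or below, against 1.99% and 5.52% of all genes. Most CD8 T cells (2906) fell into a cluster led by Dapl1 and Ccr9, with 263 CPM of Nkg7, 23.6 CPM of Prf1 and 8.2 CPM of Eomes. A smaller cluster of 578 cells, led by Ly6c2 and Gzmm, had 483.5 CPM of Nkg7, 48.0 CPM of Prf1, 35.6 CPM of Fasl and 31.5 CPM of Eomes. Among the 20 granule genes, 13 were tested in CD8 T cells and none was called, from Gzmm (−0.68) to Cst7 (0.24).

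A test of whether the genotype difference itself differed between NK and CD8 T cells called none of 8825 genes (0.0%; limma on within-library differences of log2 CPM, with 588 at unadjusted p below 0.05). For the 7 members it could test, the difference ran from −0.96 ± 0.49 for Eomes (limma adjusted p = 0.764) to 0.40 ± 0.36 for Gzmb (limma adjusted p = 0.875). No fit called a member, but the values moved with single libraries: Eomes was at −0.43 without Smad4fl/fl 1 and Gzmb at 0.10 without Smad4iko 2. Gzma, at −0.08, was at 0.87 with the term for Smad4iko 3 and 4 (limma adjusted p = 0.710).

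Fasl had the highest mean of the members in CD4 T cells (31.4 CPM, against 28.0 CPM for Nkg7), though not in every library, and it separated the genotypes there. It was at 27.1, 19.8, 22.5 and 23.6 CPM in Smad4iko and at 37.4, 39.3 and 49.8 CPM in Smad4fl/fl CD4 T cells, so all Smad4iko libraries were lower. The log2 difference was −0.76 ± 0.17 (edgeR adjusted p = 0.730, and 0.0011 before adjustment, and DESeq2 adjusted p = 0.0738), so it did not pass the threshold. The separation was present in 2 clusters of the class: 2338 cells led by Igfbp4 had 20.1 to 25.0 CPM in Smad4iko and 36.4 to 45.1 CPM in Smad4fl/fl libraries, and 2209 cells led by Ly6c1 had 14.4 to 21.3 CPM in Smad4iko and 29.0 to 42.3 CPM in Smad4fl/fl libraries. Another cluster, 736 cells led by Cd5 and Tnfrsf4, had the highest Fasl in the class (70.5 CPM). After thinning, 2.74% to 3.91% of Smad4iko and 5.16% to 6.77% of Smad4fl/fl CD4 T cells (median depth 5164 and 5476 UMIs) held a Fasl UMI, against means of 0.15% and 0.22% of myeloid cells.

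The remaining members in CD4 T cells were low and overlapped. Nkg7 was at 16.3, 17.8, 24.7 and 25.4 CPM in Smad4iko and at 21.1, 23.7 and 67.3 CPM in Smad4fl/fl CD4 T cells, where Smad4fl/fl 3 stood alone. Its log2 difference was −0.72 ± 0.38 (edgeR adjusted p = 0.730) and 0.01 without Smad4fl/fl 3. Gzmb averaged 12.2 ± 3.17 CPM in Smad4iko (SD, n = 4) and 14.9 ± 5.84 CPM in Smad4fl/fl cells (n = 3), and was concentrated in a cluster of 532 cells led by Foxp3, the factor of regulatory T cells, at 95.6 CPM. The log2 differences of Gzma, Gzmb, Prf1 and Ifng were −0.58 ± 0.57, −0.20 ± 0.28, −0.20 ± 0.27 and −0.69 ± 0.95. Gzmc, Gzmk, Tbx21 and Eomes, with 50, 42, 71 and 38 UMIs, were too sparse to test. Of the 10 members 6 were tested in CD4 T cells and 0 called, as were 0 of 10066 genes (0.0%), with 642 genes (6.38%) at unadjusted p below 0.05 and 15 called by DESeq2. Fasl was the 1 member at unadjusted p below 0.05. It lay wholly below, against 4.9% of all genes, and none lay wholly above, against 2.6%. All 6 tested members had a log2 difference below 0, with a median of −0.64 against 0.01 over all genes, and Smad4fl/fl 3 was the highest library for 5 of them. Among the other cytokine genes, Ccl5 had the lowest value in CD4 T cells (log2 difference −1.82 ± 0.26, edgeR adjusted p = 0.195) and Ccl3 the highest (1.48 ± 0.46).

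The gamma-delta T class consisted of clusters led by Cd163l1 and Trdv4 and by the cytokine genes Il17a and Il17f, and Gzmb was its most abundant member. A further cluster with gamma-delta receptor transcripts and high Gzma was left unnamed and is not in this class. Gzmb was at 378, 333, 83.2 and 52.6 CPM in Smad4iko and at 193, 103 and 86.8 CPM in Smad4fl/fl gamma-delta T cells. Smad4iko 1 and 2 were highest and Smad4iko 3 and 4 lowest, so the genotypes overlapped. A Gzmb UMI was seen in 71 of 125, 34 of 71, 37 of 157 and 32 of 229 Smad4iko cells and in 7 of 13, 5 of 22 and 24 of 86 Smad4fl/fl cells. After thinning to 1500 UMIs the mean share was 16.3% in Smad4iko and 14.2% in Smad4fl/fl gamma-delta T cells (median depth 6450.5 and 7231 UMIs), against 0.38% and 0.82% of myeloid cells. Smad4fl/fl 1 held 13 of these cells, under the planned minimum of 15, so the test was added with a minimum of 10 cells. In that fit 3 members could be tested, and the log2 difference of Gzmb was 1.02 ± 0.63 (edgeR adjusted p = 0.536). With a term for Smad4iko 3 and 4 it was 1.84 (edgeR adjusted p = 0.0024), with Smad4iko 1 and 2 alone 1.84 (edgeR adjusted p = 0.0011), and without the filter on low counts 1.11 (edgeR adjusted p = 0.0035). Over all genes those fits called 34 of 6265 (0.543%), 35 of 6106 (0.573%) and 177 of 14314 (1.24%). When the cells were instead picked by UMIs of marker genes, the difference of Gzmb was −0.20, and 4 members fell (Gzma, Prf1, Nkg7 and Fasl). The fit on that pick called 111 of 8502 genes (1.31%). Trdc, a gene of that pick, was at a mean of 77.8 CPM in NK cells and at 621 CPM in the unnamed cluster, and the part of either in the pick was not tested. The log2 differences of Gzma and Nkg7 were 0.19 ± 0.74 and −0.33 ± 0.55. None of the 3 was called, against 4 of 6265 genes (0.0638%), and none was at unadjusted p below 0.05, against 12.8%. None of the 3 lay wholly above or below, against 4.92% and 9.42% of all genes. Gzmk had 0 UMIs in all 703 cells, which allows up to 0.6 CPM (3 counts). Gamma-delta T cells made up 1.96%, 1.08%, 1.93% and 3.43% of Smad4iko and 0.164%, 0.312% and 1.24% of Smad4fl/fl libraries (exact permutation test over 35 splits, two-sided p = 0.114, smallest possible 0.0286).

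**Figure D4:**
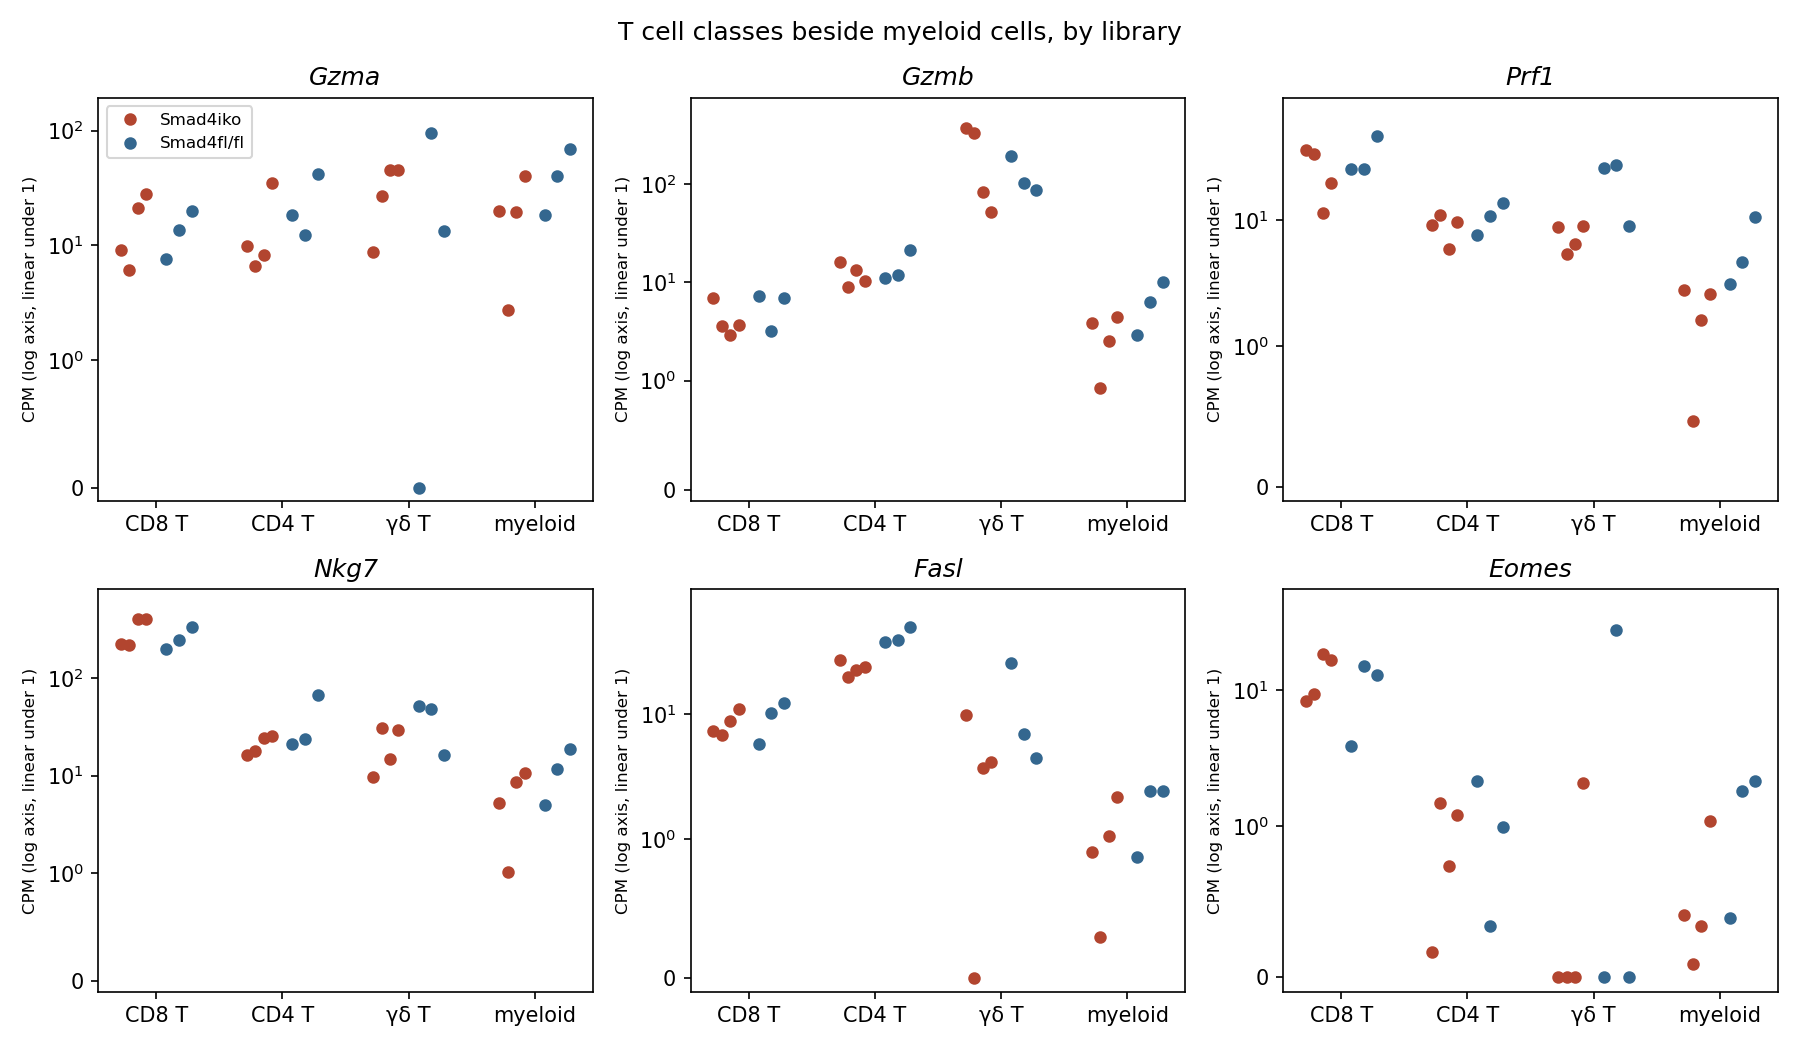
CPM of 6 members in CD8 T, CD4 T, gamma-delta T (γδ T) and myeloid cells, 1 point per library (Smad4iko left of Smad4fl/fl in each class), on an axis that is logarithmic above 1 and linear below. Nkg7 and Prf1 in CD8 T cells, Fasl in CD4 T cells and Gzmb in gamma-delta T cells lie above all myeloid points, while Gzma in CD8 and CD4 T cells lies within the myeloid range.

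Droplets also capture RNA released into the suspension, and myeloid cells served to estimate it. Whether they make any of these transcripts themselves was not tested. Gzma in 17550 myeloid cells (neutrophils, alveolar and interstitial macrophages and monocytes) was at 20.1, 2.72, 19.7 and 40.2 CPM in Smad4iko and at 18.3, 40.5 and 68.9 CPM in Smad4fl/fl libraries. That was between 0.019% and 0.454% of the NK level in the same library, and the other 5 members with over 100 myeloid UMIs (Gzmb, Prf1, Nkg7, Fasl and Eomes) lay between 0.029% and 0.712% of theirs. Gzma averaged 15.2 CPM in CD8 T cells and 18.9 CPM in CD4 T cells, below the myeloid mean of 30.0 CPM, and exceeded the myeloid level in 2 of 7 libraries in each class. Its level over the whole CD8 and CD4 T classes is therefore not read as expression. The measure was uneven: in Smad4fl/fl 2 Gzma was at 110 CPM in neutrophils and 5.09 CPM in interstitial macrophages. B cells averaged 10.9 CPM over the 7 libraries, below both T classes. The part of free RNA in the T cell levels was not tested. Clusters within the CD8 and CD4 T classes differed. The CD4 cluster led by Cd5 and Tnfrsf4 averaged 45.5 CPM in Smad4iko and 112 CPM in Smad4fl/fl libraries. For the CD8 cluster led by Ly6c2 and Gzmm these were 50.3 and 24.7 CPM. In gamma-delta T cells Gzma averaged 33.7 CPM, above the myeloid level in 4 of 7 libraries. Gzmb in CD8 T cells (4.93 CPM) was also near the myeloid mean of 4.44 CPM, above it in 4 of 7 libraries. Nkg7, Prf1, Fasl and Tbx21 were above the myeloid level in all 7 libraries in CD8 and in CD4 T cells. Tbx21 in CD4 T cells had 1 to 39 UMIs per library, with Smad4iko 2 above on 1 UMI. Eomes was above in all 7 in CD8 T cells, and Gzmb in all 7 in CD4 and in gamma-delta T cells. Per UMI of Nkg7 there were 2.27 to 3.85 UMIs of Gzma in myeloid cells and 3.19 to 4.85 in NK cells, against 0.028 to 0.0701 in CD8 T cells. The ratio was 0.336 to 1.37 in CD4 T cells, 0 to 3.06 in gamma-delta T cells and 1.76 to 5 in B cells. It also depends on the Nkg7 of each class, so it does not give the source of Gzma.

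The myeloid levels followed the share of NK cells in the library. NK cells made up 11.1%, 3.88%, 6.74% and 10.5% of kept cells in Smad4iko and 2.87%, 13.4% and 19.5% in Smad4fl/fl libraries (8.07 ± 3.40% and 11.9 ± 8.41%, SD; exact permutation test, two-sided p = 0.457). Over the 7 libraries Gzma in myeloid cells rose with that share, with Pearson's r = 0.908 (exact permutation p = 0.0131, adjusted over 10 members 0.0417) and Spearman's rho = 0.929 (exact permutation p = 0.00675, adjusted 0.0476). Without Smad4fl/fl 3 and Smad4fl/fl 1, the libraries farthest from the median share, r was 0.858, and without Smad4fl/fl 3 alone it was 0.781 (exact permutation p = 0.0917). In neutrophils alone it was 0.461. With 4 and 3 libraries no value within a genotype is given. Gzmb (r = 0.940), Eomes (0.890), Nkg7 (0.882), Prf1 (0.852) and Fasl (0.821) had adjusted p of 0.0317 to 0.0423 by the exact permutation test of r, while Tbx21 (0.729) and Ifng (0.663), with 77 and 50 myeloid UMIs, did not pass. By Spearman's rho Prf1 did not pass either (rho = 0.643, exact permutation adjusted p = 0.232). Gzmc and Gzmk had 4 and 2 myeloid UMIs and r of 0.201 and −0.274.

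Between genotypes no member was called in myeloid cells (8 tested, against 0.00772% of 12948 genes called). Prf1 was at 2.81, 0.47, 1.61 and 2.61 CPM in Smad4iko and at 3.10, 4.63 and 10.6 CPM in Smad4fl/fl myeloid cells, all Smad4iko libraries being lower, with a log2 difference of −1.71 ± 0.57 (edgeR adjusted p = 0.559, and 0.0175 before adjustment). Tbx21 was also lower in all Smad4iko libraries (−1.61 ± 0.49, edgeR adjusted p = 0.559), making 2 of 8 members against 5.07% of all genes. The same 2 were at unadjusted p below 0.05, against 8.77%, and none lay wholly above, against 2.6%. The median log2 difference of the 8 was −1.09, against 0.01 over all genes. Smad4fl/fl 3, the library with the largest NK share, had the highest myeloid level of each of these members except Ifng.

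**Figure D5:**
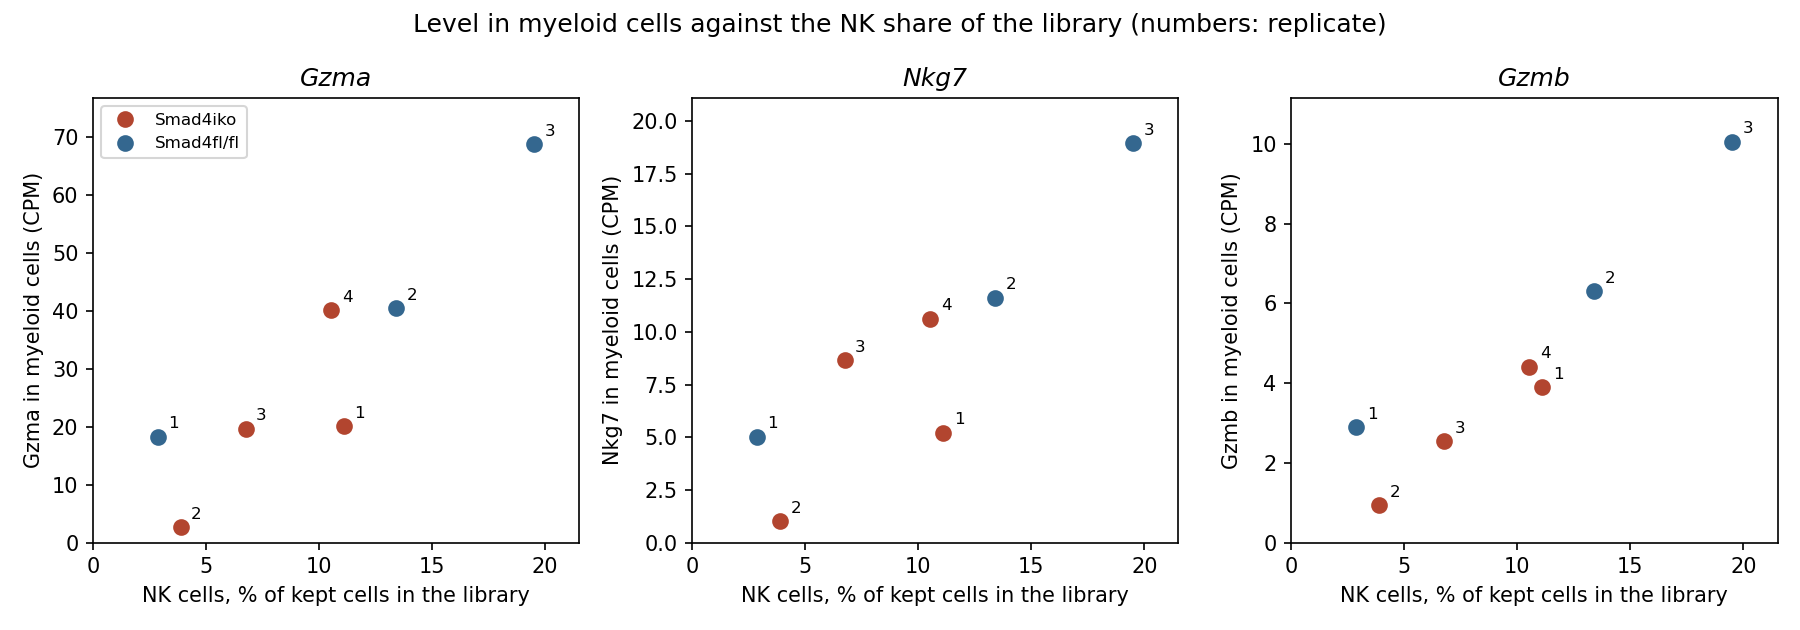
Gzma, Nkg7 and Gzmb in myeloid cells in CPM against the NK share of kept cells in percent, 1 point per library with its replicate number. Smad4fl/fl 3, at 19.5% NK cells, is highest in all panels, and Smad4iko 2, at 3.88%, is lowest.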

How the data were processed

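Peripheral lung cells were profiled by 10x 3′ single-cell RNA-seq, 1 library per mouse. The deposited matrices hold raw UMI counts per gene and cell barcode from Cell Ranger 6.1.1, per the file headers. The submitters' processing notes also name fastp and UMI-tools, and the build mm10. Gene and barcode lists were used only as names. No column of another sample was present.

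Barcodes with at least 300 genes, 600 UMIs and at most 20% mitochondrial UMIs were kept (49711 of 55671 after removing 1244 predicted doublets). Cells were clustered on 2000 variable genes and 40 principal components with Leiden (scanpy 1.11.5). Left out were 73 genes: the members and the granule, death ligand and cytokine, transcription factor, and interferon gamma and interleukin circuit lists. Genes found only in the lists of NK maturity and innate lymphoid cells, Itga1 among them, were not left out. The T and NK compartment was clustered again, and 3.92% of cells stayed unnamed. The thresholds that named its clusters were set after seeing them. Counts were summed per library and class and tested with edgeR 4.0.16 (quasi-likelihood, TMM, low-count filter, genotype as the only term, Benjamini-Hochberg over all genes, threshold 0.05). CPM are shares of a class's UMIs. SE is the log2 difference divided by the root of the test's F. The difference of effects between NK and CD8 T cells used limma 3.58.1, and DESeq2 1.42.0 was an alternative. Single values used exact permutation tests in scipy 1.17.1. The tests were checked on simulated data. Same-numbered samples deviated together for numbers 1 and 3 but not for 2 (correlations in NK cells 0.163, 0.132 and −0.021). With 3 numbers per group this cannot show whether the numbers pair the mice. The main test used no pairing.

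All 10 members are named in every class tested. Other genes of the fixed lists are named where called, or for some lists as the highest and lowest. The members and lists were chosen with earlier results of these data known. UMIs limit precision: 299413 for Gzma in NK cells but 68 for Gzmk. Floors (3 counts) cover counting error only.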

Additional observations from a re-analysis of the deposited data

Results flagged for a closer look

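Gzma in CD4 T cells of Smad4iko 4 was at 34.7 CPM, against 6.59 to 9.95 CPM in Smad4iko 1 to 3, a gap that made it stand apart from the other 3. The same library had 7.94 CPM of Ifng in CD4 T cells, and its NK share was 10.5%. Its myeloid cells had 40.2 CPM of Gzma, more than its CD4 T cells, against 20.1, 2.72 and 19.7 CPM in myeloid cells of Smad4iko 1 to 3. The part of free RNA in the CD4 T cell level was not tested. Among 26 gene and class pairs examined over the 4 Smad4iko libraries, Gzma in CD4 T cells was the 1 to stand apart, and chance gives about 1 group in 20.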

How the results depend on the processing

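No member was called in CD8 or CD4 T cells, in myeloid cells or in the difference between NK and CD8 T cells under any alternative, and leaving out each library in turn gave 0 to 0 called members in NK, CD8, CD4, gamma-delta T and myeloid cells. Without the filter on low counts 1 member was called in NK cells (Ifng), where that setting called 0.902% of all genes. In gamma-delta T cells 1 was called without that filter, 1 with a term for Smad4iko 3 and 4 and 1 with Smad4iko 1 and 2 alone (Gzmb each time). With cells picked by UMIs of marker genes 4 were called. Over all genes these settings called 1.24%, 0.543%, 0.573% and 1.31%. The causes were not tested. The correlation of myeloid Gzma with the NK share was 0.461 in neutrophils alone and ran from 0.781 (without Smad4fl/fl 3) to 0.954 over the libraries left out, and the difference in NK share from −8.39 to −0.0683. Among 24 single results, 19 reversed under at least 1 setting, and none of these was called as reported. Tbx21 in NK cells was −0.027 and Gzma in CD8 T cells −0.113 with the replicate block, and −0.022 and −0.0726 in samples 1 to 3 without it. The replicate block changed no call of a member, and whether the numbers pair the mice is not known. Over all genes the block gave 9 calls in NK, 3 in CD8 T, 6 in CD4 T, 50 in gamma-delta T and 2 in myeloid cells. Samples 1 to 3 without the block gave 1, 0, 0, 15 and 1, and the fits as reported, with all libraries, 3, 0, 0, 4 and 1. With the term for Smad4iko 3 and 4, and with Smad4iko 1 and 2 alone, values in NK cells were 0.00902 and 0.0102 for Prf1 and −0.175 and −0.173 for Tbx21. In CD8 T cells they were −0.885 and −0.884 for Gzma, 0.0769 and 0.076 for Prf1, −0.243 and −0.243 for Nkg7, −0.411 and −0.407 for Tbx21, and −0.381 and −0.377 for Eomes. Cells picked by UMIs gave −0.707 for Gzmc in NK cells, 0.266 for Gzmb and −0.113 for Tbx21 in CD8 T cells, 0.465 for Gzma, 0.666 for Gzmb and 0.749 for Ifng in CD4 T cells, and −0.202 for Gzmb in gamma-delta T cells. In CD8 T cells Gzma was −0.958 with doublets kept and −0.264 with the members in the clustering, and Fasl was 0.279 with the members in, 0.00905 with a sex term and 0.269 with equal cells. Over the libraries left out, NK values ran from −0.0321 to 0.189 for Gzma, −0.0567 to 0.346 for Gzmb, −0.0715 to 0.703 for Gzmc, −0.198 to 0.0152 for Fasl and −0.0222 to 0.170 for Tbx21. CD8 values ran from −0.0726 to 0.700 for Gzma, −0.475 to 0.0343 for Prf1, −0.267 to 0.142 for Fasl and −0.0398 to 0.575 for Tbx21, and CD4 values from −2.44 to −0.00803 for Ifng, −1.45 to 0.0912 for Gzma, −0.393 to 0.168 for Gzmb, −0.412 to 0.00724 for Prf1 and −1.02 to 0.00939 for Nkg7. Low counts limit Gzmc, Gzmk and, outside NK cells, Ifng.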

Other observations

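Some lymphocytes outside the named classes also carried members, given over all libraries together. A cluster of 410 T or NK cells, left unnamed and in none of the classes tested, had Ikzf2, Klra5, Cd7 and Xcl1 and the gamma-delta receptor genes Trgc4, Trdc and Trgv2 among its 10 leading genes. It had 601.5 CPM of Cd3e and 621 CPM of Trdc. It had 1775 CPM of Gzma, 1016 CPM of Nkg7, 289 CPM of Gzmb, 188 CPM of Fasl and 16.5 CPM of Gzmk. Its Gzma was at 1549.5, 3649, 615.5 and 1495 CPM in Smad4iko and at 1576, 1316 and 1914 CPM in Smad4fl/fl libraries, overlapping. A cluster of 225 cells led by Plac8, Lyst and Zbtb16, the factor of innate-like T cells, had 57.8 CPM of Ifng and 43.5 CPM of Tbx21 with no Eomes UMI in it. Ifng there was at 51.6, 20.9, 112 and 163 CPM in Smad4iko and at 6.97, 16.2 and 74.0 CPM in Smad4fl/fl libraries. Another unnamed cluster of 298 cells had Il18rap, Zeb2 and Klrc2 but also Sftpc and Scgb1a1 among its leading genes. It had 390 CPM of Prf1, 258 CPM of Fasl, 237 CPM of Eomes and 132 CPM of Tbx21. Of its cells 62 were Smad4iko and 236 Smad4fl/fl, with as few as 3 in a library.

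Gzma in group 2 innate lymphoid cells rested on single cells: 1 cell of 40 in Smad4fl/fl 2 held all 40 of its Gzma UMIs, and 1 cell of 44 in Smad4fl/fl 3 held 78 of 86, while no cell of the Smad4iko libraries held 3 or more.

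The genes most like each member over the 14 classes with enough cells, by Pearson's r of log2(mean CPM + 1), were NK-high genes. They were Klrb1c (0.974) and Ncr1 (0.971) for Gzma, Ccl5 (0.982) and Klrc1 (0.978) for Prf1, and Klrc2 (0.984) and Samd3 (0.982) for Eomes. For Nkg7 they were Klrc1 (0.970) and Samd3 (0.963). The points share libraries and depth, and every named gene peaks in NK cells.

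Of the 50-base windows of the longest Gzmc transcript, 3.79% also occur in Gzme, and 13.5% of the Ifng windows occur in Gm49751. Reads from such windows fit both genes. The other members share at most 0.256% of their windows with any other gene.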
